A study of Mus musculus with 6 samples.

Results

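The 40 genes described here encode proteins of monocytes, macrophages and other leukocytes. They were chosen by name, from what is known of their use in blood cells, but with earlier results of these data known. All 40 were among the 33276 gene symbols of the count table. RNA-seq was done on fibroadipogenic progenitors (FAPs), mesenchymal cells of the space around muscle fibres that are able to form fibroblasts and adipocytes. The libraries were 3 from FAPs of peripheral blood (circulating) and 3 from FAPs of muscle, each with 1 value per gene. Both groups came from mice with middle cerebral artery occlusion (MCAO), in which a brain artery is blocked to model ischaemic stroke. Mice without the occlusion were not analysed here. The age and genetic background of the mice, the time after occlusion and the way in which the cells were sorted were not given in the sources used here, and neither was whether libraries of a group came from separate mice. P-values therefore measure the spread between these libraries, which may be technical.

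Leukocytes share a set of proteins that other cells largely lack, among them the phosphatase CD45, several tetraspanins and regulators of the actin cytoskeleton. Macrophages and monocytes add receptors for antibodies, complement and debris, the receptor for the growth factor CSF1, and enzymes that kill or digest what they take up. Many of the activating receptors have no signalling tail of their own and depend on small adaptors with an immunoreceptor tyrosine-based activation motif (ITAM). FAPs are sorted as cells without CD45 in common protocols, so these transcripts are a usual measure of leukocyte RNA in a FAP library.

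Circulating libraries held 5522193 to 13813329 counts and muscle libraries 17532558 to 23424039. 18S ribosomal RNA, listed under a pair of symbols, took 42.9% to 60.1% of circulating and 27.8% to 32.3% of muscle counts, which left 3106011 to 7880709 and 12663430 to 15864333 other counts. Circulating replicate 2 was the shallowest library on either measure. A list of 12 FAP and fibroblast genes, Dcn and Gsn among them, summed to 55173 to 70997 RPM (reads per 1000000 counts other than 18S) in circulating libraries and 85559 to 99520 in muscle libraries, so mesenchymal transcripts were abundant in every library. Of the 12, 0 were higher and 2, Gsn and Smoc2 (the last named after its value was seen), were lower past the threshold of edgeR, Gsn, which encodes gelsolin, at a log2 fold change of -1.19 ± 0.17 (adjusted p = 0.0341 in edgeR). With any 1 muscle library left out, 0 or 1 genes of the whole table were called lower. Silent genes also had reads. A set of 381 receptor genes of smell and taste (vomeronasal, taste and trace amine receptors), mostly silent outside sensory organs, was at 0.918, 1.51 and 1.0 RPM per kilobase of exon in circulating replicates 1, 2 and 3, and at 0.401, 0.499 and 0.312 RPM per kilobase in muscle replicates 1, 2 and 3. This sensory gene background averaged 1.15 ± 0.32 in circulating and 0.404 ± 0.093 in muscle libraries (SD, n = 3 each), 2.83 times as much in circulating libraries.

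The 40 genes together were higher in all 3 circulating libraries than in any muscle library. The circulating libraries differed from each other in how much and in which genes. Summed over the 40 genes, circulating replicates 1, 2 and 3 had 5947, 5320 and 1974 counts, and muscle replicates 1, 2 and 3 had 1413, 1491 and 1696. In RPM, the sum was 755 in circulating replicate 1 (95% Wilson interval 736 to 774), 1713 in circulating replicate 2 (1667 to 1759) and 466 in circulating replicate 3 (446 to 487). It was 108, 118 and 107 in muscle replicates 1, 2 and 3. The intervals cover counting error only, as the reads carry no molecular identifiers that the labels mention. Against the muscle mean the sums were 6.81, 15.5 and 4.21 times as high in circulating replicates 1, 2 and 3. Per TMM-scaled library size they were 5.36, 8.74 and 2.68 times as high, and per all counts with 18S included 5.61, 12.6 and 2.42 times. The group means were 978 ± 653 in circulating and 111 ± 6.08 in muscle libraries (SD, n = 3 each), so the circulating libraries spread far more widely than the muscle libraries. In such bulk samples, more leukocytes, more RNA in each leukocyte and expression of these genes in the FAPs themselves cannot be told apart.

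The sensory gene background moved with the groups too. Over the summed exon length of the 40 genes it alone would give 137, 226 and 150 RPM in circulating replicates 1, 2 and 3, and 60.0, 74.6 and 46.7 RPM in muscle replicates 1, 2 and 3. The measured sums were 5.50, 7.56 and 3.10 times that in the circulating libraries, and 1.79, 1.58 and 2.29 times that in the muscle libraries. Circulating sums thus stood above both their own background and the muscle libraries.

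Each circulating library had its own leading genes. In circulating replicate 1, Srgn, Laptm5, Lcp1, Cd83 and Lyz2 held 76.2% of the member counts. In circulating replicate 2, C1qb, C1qc, C1qa, Cd14 and Fcer1g led and held 42.2%, and the remainder was spread over many genes. In circulating replicate 3, Cd14, Plek, Cd68, Cd83 and Fcer1g held 58.5%. In muscle libraries no gene passed 26.2 RPM, the value of Arhgdib in muscle replicate 1.

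**Figure D1:**
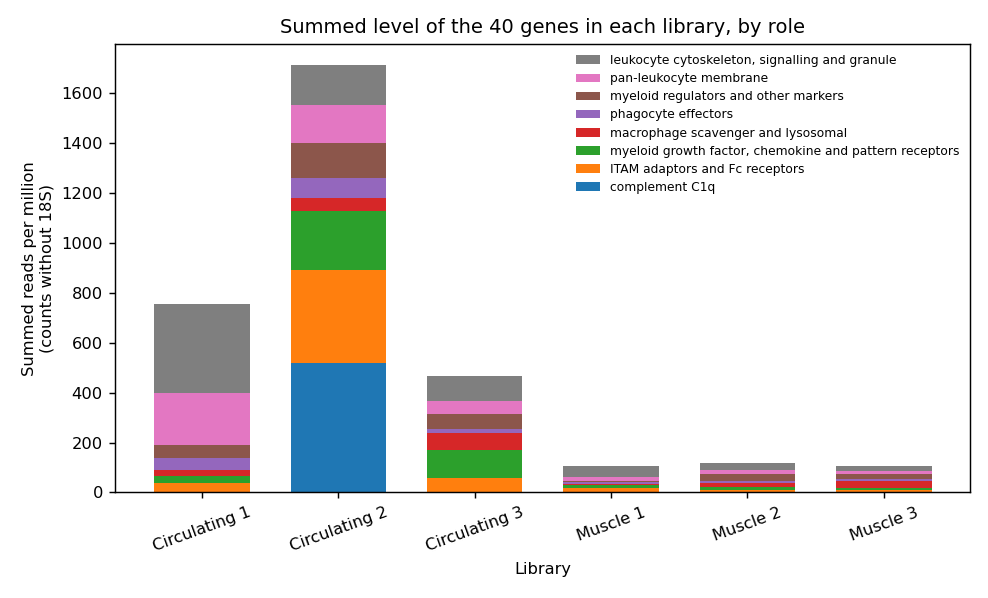
Summed level of the 40 leukocyte genes in each library, in RPM (bar height, axis from 0), with colours for the 8 roles the genes were sorted into. Circulating replicate 2 reaches 1713, with 519 from the C1q genes, circulating replicates 1 and 3 reach 755 and 466, and the muscle libraries lie between 107 and 118.

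Counted gene by gene, circulating replicate 2 carried the broadest set. Levels of single genes below are CPM, counts per 1000000 of the library size scaled by trimmed mean of M values (TMM). Circulating replicates 1, 2 and 3 lay above the highest muscle library in 26, 36 and 23 of the 40 genes. Of all 20248 genes tested, 36%, 35% and 34.1% did so in the same 3 libraries. Restricted to the 33 members tested, these counts were 23, 29 and 22. At least 2 times the highest muscle library was reached by 11, 28 and 7 of the 40 genes, and by 9, 21 and 6 of the 33 tested, where 9.75%, 12.8% and 11% of all genes tested reached it. Circulating replicate 2 stood furthest from the share over all genes, and circulating replicate 3 nearest to it. For 9 genes circulating replicate 2 was at least 4 times as high as each of the other libraries, namely Tyrobp, C1qa, C1qb, C1qc, Cx3cr1, Fcgr3, Trem2, Rac2 and Cd37, as were 1.58% of the genes with a read. Srgn alone had circulating replicate 1 that far above each other library (1.64% of genes), and no member had circulating replicate 3 so (1.5% of genes).

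**Figure D2:**
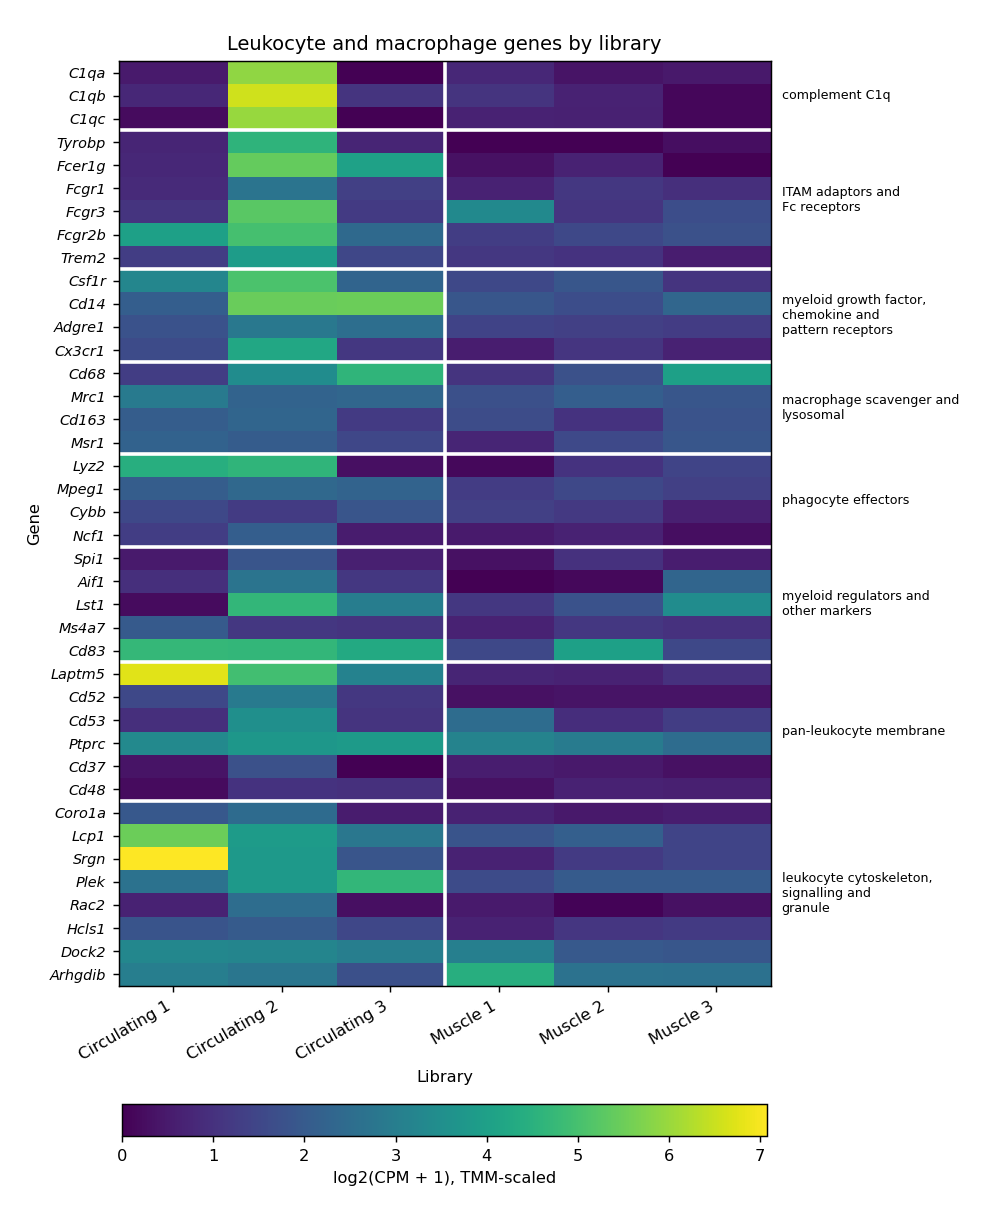
Level of each of the 40 genes (rows, sorted by role) in each library (columns, circulating left of muscle) as log2(CPM + 1). The C1q rows are bright in circulating replicate 2 alone, Srgn and Laptm5 are brightest in circulating replicate 1, and Ptprc is at a like level in all 6 libraries.

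The C1q genes encode the 3 chains of the recognition subunit of the classical complement pathway, which tissue macrophages and microglia make in quantity. C1qb had 92.9 CPM in circulating replicate 2, but 0.730 and 1.10 CPM in circulating replicates 1 and 3, against 1.08, 0.609 and 0.0978 CPM in muscle replicates 1, 2 and 3. Outside circulating replicate 2 the groups overlapped. C1qa had 443 reads (59.0 CPM) and C1qc 472 reads (62.8 CPM) in circulating replicate 2. In circulating replicate 3 both were at 0, which allows up to 0.329 CPM at this depth, and in the remaining libraries C1qa had 6 to 12 and C1qc 2 to 11 reads. The trio made up 30.3% of the member counts of circulating replicate 2, and 0.303% and 0.507% of those of circulating replicates 1 and 3.

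Promoters from RefSeq on build GRCm38.p6 were matched for 29 of the 40 genes, while the reads were mapped to GRCm39. The 250 bases before the start of C1qb and C1qc are shown as examples of genes high in circulating replicate 2, and those of Laptm5 and Srgn, for one of its listed starts, as genes highest in circulating replicate 1. The windows are chr4:136886201-136886450 (minus strand) for C1qb, chr4:136892915-136893164 (minus strand) for C1qc, chr4:130913066-130913315 (plus strand) for Laptm5 and chr10:62527446-62527695 (minus strand) for Srgn. Capitals mark the letters GAGGAA or their reverse complement TTCCTC, a core that PU.1, the transcription factor encoded by Spi1, can bind.
C1qb: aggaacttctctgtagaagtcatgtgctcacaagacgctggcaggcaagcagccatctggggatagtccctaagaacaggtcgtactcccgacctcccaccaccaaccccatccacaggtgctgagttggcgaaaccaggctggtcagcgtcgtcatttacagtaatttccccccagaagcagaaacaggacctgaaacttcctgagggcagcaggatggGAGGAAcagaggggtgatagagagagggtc
C1qc: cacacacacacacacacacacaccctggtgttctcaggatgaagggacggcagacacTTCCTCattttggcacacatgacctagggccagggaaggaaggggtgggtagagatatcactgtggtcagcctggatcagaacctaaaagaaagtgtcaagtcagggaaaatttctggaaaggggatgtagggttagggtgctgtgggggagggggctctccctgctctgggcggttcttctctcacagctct
Laptm5: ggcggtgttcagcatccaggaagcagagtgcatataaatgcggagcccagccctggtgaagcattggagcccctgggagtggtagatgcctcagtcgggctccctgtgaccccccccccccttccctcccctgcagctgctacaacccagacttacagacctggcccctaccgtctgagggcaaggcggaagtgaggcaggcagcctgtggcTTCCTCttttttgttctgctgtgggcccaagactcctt
Srgn: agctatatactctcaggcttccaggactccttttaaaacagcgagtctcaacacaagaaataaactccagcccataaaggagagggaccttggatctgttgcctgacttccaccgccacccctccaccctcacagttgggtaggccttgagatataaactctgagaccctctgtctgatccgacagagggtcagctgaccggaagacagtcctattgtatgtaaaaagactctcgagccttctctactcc
The core was found once in each of C1qb, C1qc and Laptm5 and not in the Srgn window. The window of Fcer1g, another leading gene of circulating replicate 2, is not shown and did not hold the core. Searched on both strands, it was in 14 of the 29 member promoters and in 23.1% of 27025 promoters of the same length. The longer letters GAGGAAGT, which contain the core, were in 2 of the 29, those of C1qc and Cd37, and in 2.44% of all. A match describes the letters and is not evidence of binding.

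ITAM adaptors and the receptors that use them were also led by circulating replicate 2. Fcer1g, the common gamma chain of Fc receptors, had 0.730, 41.7 and 15.6 CPM in circulating replicates 1, 2 and 3, against 0.239, 0.609 and 0 CPM in muscle replicates 1, 2 and 3. Circulating replicates 2 and 3 were far above muscle, while circulating replicate 1 was near the highest muscle library. Tyrobp, which encodes the adaptor DAP12, had 9, 174 and 6 reads in circulating replicates 1, 2 and 3 and 0, 0 and 4 in muscle replicates 1, 2 and 3. Trem2, a lipid-sensing receptor that signals through DAP12, had 1.46, 14.1 and 1.87 CPM in circulating libraries and 1.19, 1.07 and 0.489 CPM in muscle libraries. For Tyrobp and Trem2 the groups did not overlap, but circulating replicates 1 and 3 lay close to muscle.

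Of the receptors for antibodies, Fcgr2b, the inhibitory one, had 15.4, 31.0 and 4.39 CPM in circulating replicates 1, 2 and 3, against 1.43, 1.88 and 2.40 CPM in muscle libraries. Every circulating library was above every muscle library. Fcgr3, an activating receptor, had 1.09, 37.8 and 1.32 CPM in circulating libraries and 9.32, 1.12 and 2.20 CPM in muscle libraries, so it was high in circulating replicate 2 and, less so, in muscle replicate 1. Fcgr1, the high-affinity receptor, stayed between 0.597 and 5.59 CPM in the 6 libraries. The Fc receptors are related in sequence, so reads may have been split between them.

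Of the receptors that mark monocytes and macrophages, Csf1r, Cx3cr1 and Adgre1 were highest in circulating replicate 2. Csf1r, the receptor on whose ligands most macrophages depend for survival, had 8.54, 32.3 and 3.84 CPM in circulating replicates 1, 2 and 3, against 1.91, 2.74 and 1.08 CPM in muscle replicates 1, 2 and 3. Cx3cr1, the fractalkine receptor, had 2.04, 18.1 and 1.21 CPM in circulating libraries and 0.478, 1.12 and 0.587 CPM in muscle libraries. Both had the highest level in circulating replicate 2 and no overlap between the groups. Cd14, the co-receptor for bacterial lipopolysaccharide, had 3.36, 42.7 and 43.6 CPM in circulating libraries, against 2.75, 2.18 and 4.01 CPM in muscle libraries. It was as high in circulating replicate 3 as in circulating replicate 2, while circulating replicate 1 lay within the muscle range. Adgre1, which encodes the macrophage antigen F4/80, had 2.41, 6.12 and 4.83 CPM in circulating libraries and 1.67, 1.52 and 1.37 CPM in muscle libraries.

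Scavenger receptors were low. Mrc1, the mannose receptor of tissue macrophages, had 6.42, 3.73 and 4.06 CPM in circulating replicates 1, 2 and 3 and 2.33, 3.35 and 2.74 CPM in muscle replicates 1, 2 and 3. Cd163, which takes up haemoglobin bound to haptoglobin, had 1.32 to 3.99 CPM in circulating libraries and 1.07 to 2.49 CPM in muscle libraries, and Msr1, a class A scavenger receptor, 1.87 to 3.65 and 0.657 to 2.74 CPM. Neither separated the groups. Cd68, a lysosomal glycoprotein of macrophages, had 1.46, 9.85 and 23.9 CPM in circulating libraries, against 1.08, 2.39 and 15.3 CPM in muscle libraries. Its high libraries were circulating replicate 3 and muscle replicate 3.

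Among effectors of phagocytes, Lyz2, the lysozyme of myeloid cells, had 20.7 and 23.7 CPM in circulating replicates 1 and 2 but 0.220 CPM in circulating replicate 3, against 0.119, 1.07 and 1.71 CPM in muscle replicates 1, 2 and 3. Circulating replicate 3, with 2 reads, lay inside the muscle range. Mpeg1, a pore-forming protein of macrophages, was at 3.28 to 4.26 CPM in circulating and 1.37 to 1.88 CPM in muscle libraries. Cybb and Ncf1, subunits of the phagocyte NADPH oxidase, stayed at or under 3.33 CPM in each library, and the groups overlapped for both.

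Among the regulators and further markers, Cd83 alone had no overlap between the groups. Spi1, the gene of PU.1, had 6, 20 and 5 reads in circulating replicates 1, 2 and 3 and 4, 20 and 10 reads in muscle replicates 1, 2 and 3. Scaled for depth this was 0.438, 2.66 and 0.549 CPM in circulating and 0.239, 1.02 and 0.489 CPM in muscle libraries. Cd83, a surface protein of activated dendritic cells and B cells, had 25.2, 24.6 and 18.8 CPM in circulating libraries, against 1.91, 15.1 and 1.91 CPM in muscle libraries. It was the most even of the abundant members across circulating libraries, and muscle replicate 2 came close to them. Lst1, a myeloid membrane protein, had 0.146, 24.6 and 6.92 CPM in circulating libraries and 1.19, 2.44 and 9.78 CPM in muscle libraries. Aif1, which encodes the microglia and macrophage marker Iba1, had 0.949, 5.59 and 1.21 CPM in circulating libraries and 0, 0.102 and 3.91 CPM in muscle libraries. Ms4a7, a macrophage membrane protein, was at or under 2.99 CPM throughout.

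Of the genes used by leukocytes in general, Laptm5, Srgn and Lcp1 were highest in circulating replicate 1, while most others were low and peaked in circulating replicate 2 or 3. Laptm5, a lysosomal membrane protein of blood cells, had 107, 29.3 and 7.8 CPM in circulating replicates 1, 2 and 3, against 0.657, 0.609 and 1.03 CPM in muscle replicates 1, 2 and 3. Even the lowest circulating library was several times above the highest muscle library. Srgn, the core protein of the proteoglycan serglycin in secretory granules, had 134, 12.9 and 2.64 CPM in circulating libraries and 0.597, 1.32 and 1.76 CPM in muscle libraries. Lcp1, the actin-bundling L-plastin, had 43.9, 13.8 and 5.93 CPM in circulating libraries and 2.57, 3.40 and 1.76 CPM in muscle libraries. For these genes the circulating libraries stood in the order 1, 2, 3, and none overlapped with muscle in CPM. Plek, a substrate of protein kinase C in platelets and leukocytes, went the other way, with 5.40, 13.2 and 24.9 CPM in circulating libraries, against 2.09, 3.10 and 3.08 CPM in muscle libraries.

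Ptprc, which encodes CD45, had 8.98, 12.5 and 13.5 CPM in circulating replicates 1, 2 and 3 and 7.89, 6.70 and 4.64 CPM in muscle replicates 1, 2 and 3. The groups did not overlap, but the libraries differed far less than for Laptm5 or C1qb. Per kilobase of exon Ptprc was at 0.93, 1.09 and 1.58 times the sensory gene background in circulating libraries and at 1.37, 1.14 and 1.05 times in muscle libraries, so its reads were near the level of silent genes in all 6. Cd52, a small glycoprotein of lymphocytes and monocytes, had 1.90, 6.52 and 1.21 CPM in circulating libraries and 0.239, 0.305 and 0.293 CPM in muscle libraries. The tetraspanin Cd53 had 0.949, 10.5 and 1.10 CPM in circulating libraries and 4.66, 0.914 and 1.42 CPM in muscle libraries, and the tetraspanin Cd37 and the adhesion protein Cd48 stayed at or under 2.40 CPM in every library.

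The remaining cytoskeletal and signalling genes were low or overlapped. Coro1a, an actin-binding coronin, had 39, 34 and 4 reads in circulating replicates 1, 2 and 3 and 10, 8 and 10 in muscle replicates 1, 2 and 3. The GTPase gene Rac2 had 8, 36 and 2 reads in circulating libraries and 7, 1 and 5 in muscle libraries. Hcls1, a cortactin-like actin regulator, was at 1.87 to 3.06 CPM in circulating and 0.597 to 1.32 CPM in muscle libraries, and Dock2, an activator of Rac, at 7.14 to 8.76 and 2.74 to 7.23 CPM. Arhgdib, a regulator of small GTPases in blood cells, had 7.22, 5.86 and 2.31 CPM in circulating libraries, against 20.6, 5.33 and 5.18 CPM in muscle libraries. It was the 1 tested member with a negative fold change.

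**Figure D3:**
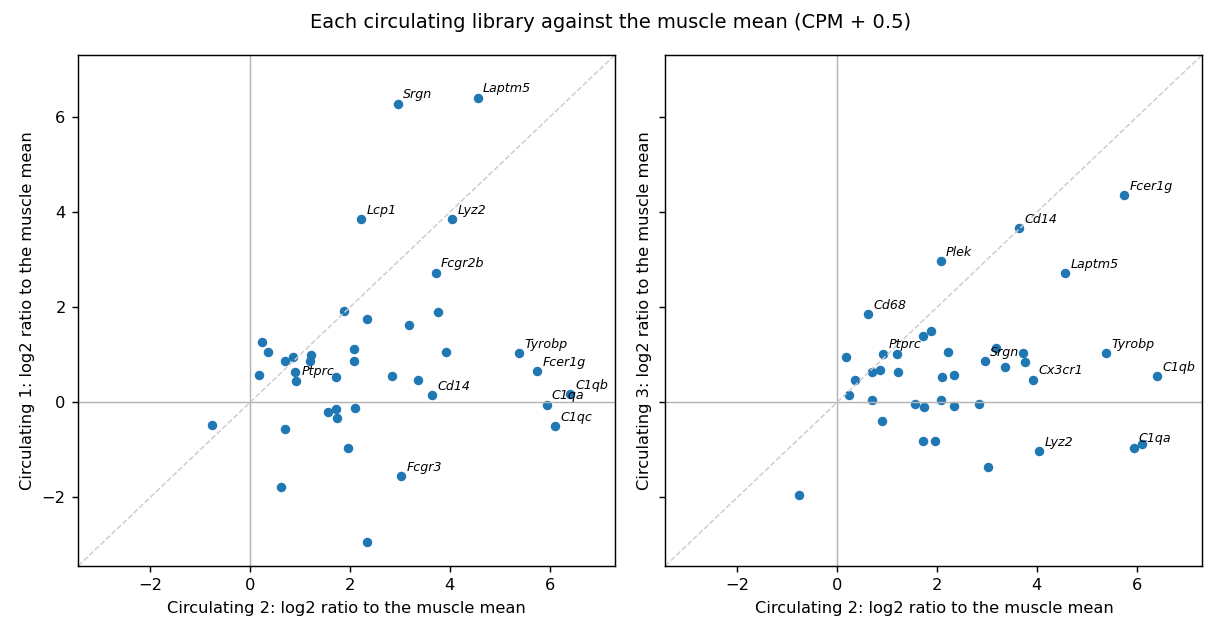
Each point is 1 of the 40 genes, at its log2 ratio to the muscle mean (CPM + 0.5) in circulating replicate 2 (horizontal) and in circulating replicate 1 or 3 (vertical, left and right panel). Srgn and Laptm5 lie above the dashed line of equal ratios in the left panel, and the C1q genes, Tyrobp and Fcer1g lie far below it.

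Set against the background of silent genes, which takes account of exon length and of the higher background in circulating libraries, 9, 24 and 8 of the 40 genes reached 3 times background in circulating replicates 1, 2 and 3, and 6, 5 and 10 in muscle replicates 1, 2 and 3. Over the tested genes with an exon length, 36.3%, 30.8% and 38.8% did so in the circulating libraries and 48.7%, 49.9% and 54.7% in the muscle libraries. Only circulating replicate 2 was thus above the share over all tested genes. Its median member was at 5.09 times background, against 1.34 and 1.5 times in circulating replicates 1 and 3 and 0.861, 1.16 and 1.46 times in muscle replicates 1, 2 and 3. C1qb reached 136 times background in circulating replicate 2, Srgn 116 times in circulating replicate 1 and Cd14 53.9 times in circulating replicate 3. Muscle libraries had high single genes too, with Lst1 at 97.3 and Cd68 at 50.3 times in muscle replicate 3 and Arhgdib at 38.2 times in muscle replicate 1. On this scale 14, 26 and 12 genes lay above the highest muscle library in circulating replicates 1, 2 and 3, where 11.9%, 10.3% and 17.0% of the tested genes did. Tyrobp, Laptm5, Cd52 and Lcp1 were the 4 members with every circulating library above every muscle library, as in 2.83% of the tested genes, and Arhgdib had every circulating library below, as had 5271 of 18532 tested genes. In CPM, 17 of the 40 genes had no overlap, all higher in circulating libraries, where 16.2% of the tested genes were higher without overlap and 11.4% lower. Fcer1g, Srgn, Fcgr2b, Csf1r, Cx3cr1, Trem2, Plek, Cd83, Mrc1, Ptprc, Mpeg1, Hcls1 and Adgre1 were the 13 that separated in CPM but not over background. Srgn, for example, was at 2.57 times background in circulating replicate 3 and 3.31 times in muscle replicate 3.

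**Figure D4:**
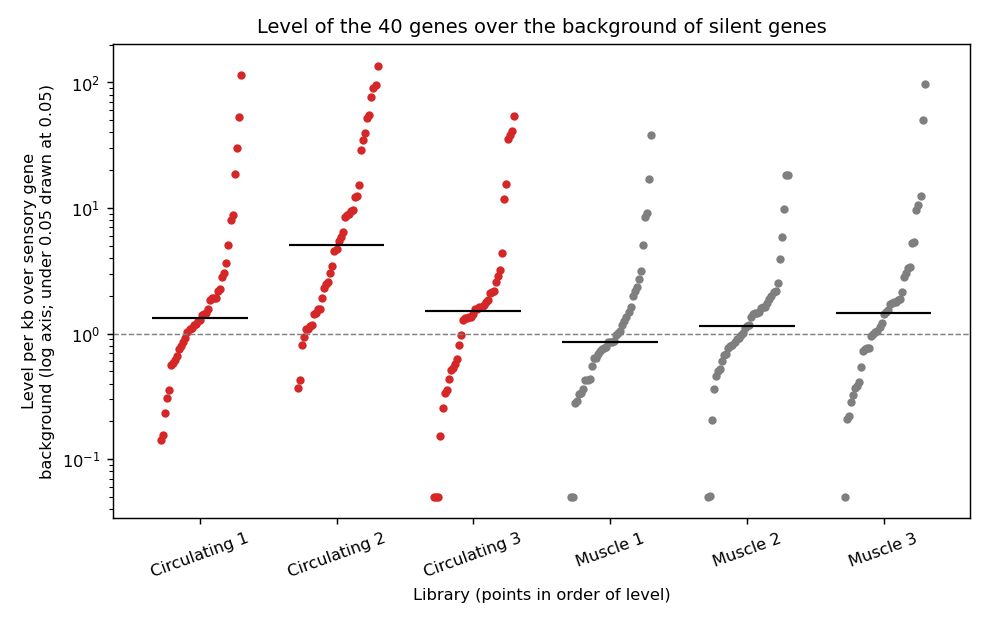
Level of each of the 40 genes per kilobase of exon, divided by the sensory gene background of its library (log axis, points in order of level, line at the median, dashed line at background). The median is 5.09 in circulating replicate 2 and between 0.861 and 1.5 in the other 5 libraries.

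With the groups compared as such, no member passed the test. Of the 40 genes 33 had enough reads to be tested, and Tyrobp, C1qa, C1qc, Coro1a, Spi1, Rac2 and Cd37 did not. In edgeR with TMM scaling 0 of the 33 were higher and 0 lower at an adjusted p under 0.05, while over all genes 0.00494% were higher and 0.104% lower. At an unadjusted p under 0.05, 17 were higher and 0 lower, where 9.71% and 9.64% of all genes were. With DESeq2, 11 were higher and 0 lower, where 1.34% of the genes it gave an adjusted p were higher and 7.08% lower. The 11 were Laptm5, Fcer1g, Srgn, Fcgr2b, Cd52, Lcp1, Cd14, Csf1r, Lyz2, Plek and Cx3cr1. The fitted log2 fold change, circulating minus muscle, was positive in 32 of the 33 tested genes, as in 54.5% of all genes. Its median was 1.54 over these 33 and 0.15 over all genes. With scaling on abundant genes, which moved the median of all genes by 0.70, the medians were 2.30 and 0.85. All genes are not a like set here. In muscle libraries the median member lay at 0.861 to 1.46 times the sensory gene background, and the median tested gene at 2.79 to 4.11 times. That background was 2.83 times as high in circulating libraries. Its part in the signs and medians was not tested.

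Laptm5 had the smallest p-value among the members. It averaged 48.0 ± 52.2 CPM in circulating and 0.764 ± 0.228 CPM in muscle libraries (SD, n = 3 each), a log2 fold change of 5.96 ± 1.07 with its SE, and an adjusted p of 0.0744 in edgeR. With library size alone it passed (adjusted p = 0.0416 in edgeR), where 0.00988% of all genes were higher and 0.138% lower. With no filter on low counts it passed too (adjusted p = 0.0189 in edgeR), where 0.019% were higher and 0.488% lower, as it did with DESeq2 (adjusted p = 2.55e-08). It was the 1 member that passed under either of those edgeR settings. Cd52 followed, with 3.21 ± 2.89 CPM in circulating and 0.279 ± 0.0351 CPM in muscle libraries and a fitted log2 difference of 3.46 ± 0.75 (adjusted p = 0.114 in edgeR). Srgn averaged 49.8 ± 73.0 CPM in circulating and 1.23 ± 0.587 CPM in muscle libraries, and had a fitted log2 difference of 5.33 ± 1.35 (adjusted p = 0.143 in edgeR). Fcer1g averaged 19.3 ± 20.7 CPM in circulating and 0.283 ± 0.307 CPM in muscle libraries, and had a fitted log2 difference of 6.05 ± 1.55 (adjusted p = 0.143 in edgeR). The SD exceeded the mean of the circulating libraries for Laptm5, Srgn and Fcer1g.

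Single circulating libraries set several of the fold changes. C1qb had a log2 fold change of 5.72 ± 1.83 (adjusted p = 0.178 in edgeR), which was 0.54 without circulating replicate 2, where the adjusted p was 0.809 in edgeR. Without that library the log2 fold change of Cx3cr1 was 1.07 in place of 3.26, that of Trem2 0.77 in place of 2.64, and that of Fcgr3 -1.89 in place of 1.66. Without circulating replicate 1 the log2 fold change of Srgn was 2.58 and that of Lcp1 1.87 in place of 3.04. Without circulating replicate 3, Plek was at 1.64 in place of 2.39 and Cd68 at -0.26 in place of 0.90. Laptm5 stayed at 4.51 or above and Fcer1g at 4.75 or above when any circulating library was left out. The median over the tested members was 1.82, 1.01 and 1.88 without circulating replicates 1, 2 and 3, over 36, 33 and 39 members. These sets differ because the filter was applied anew each time. C1qa and C1qc were tested without circulating replicate 1 or 3, and Tyrobp without circulating replicate 3. The part of the change of set in these medians was not tested.

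**Figure D5:**
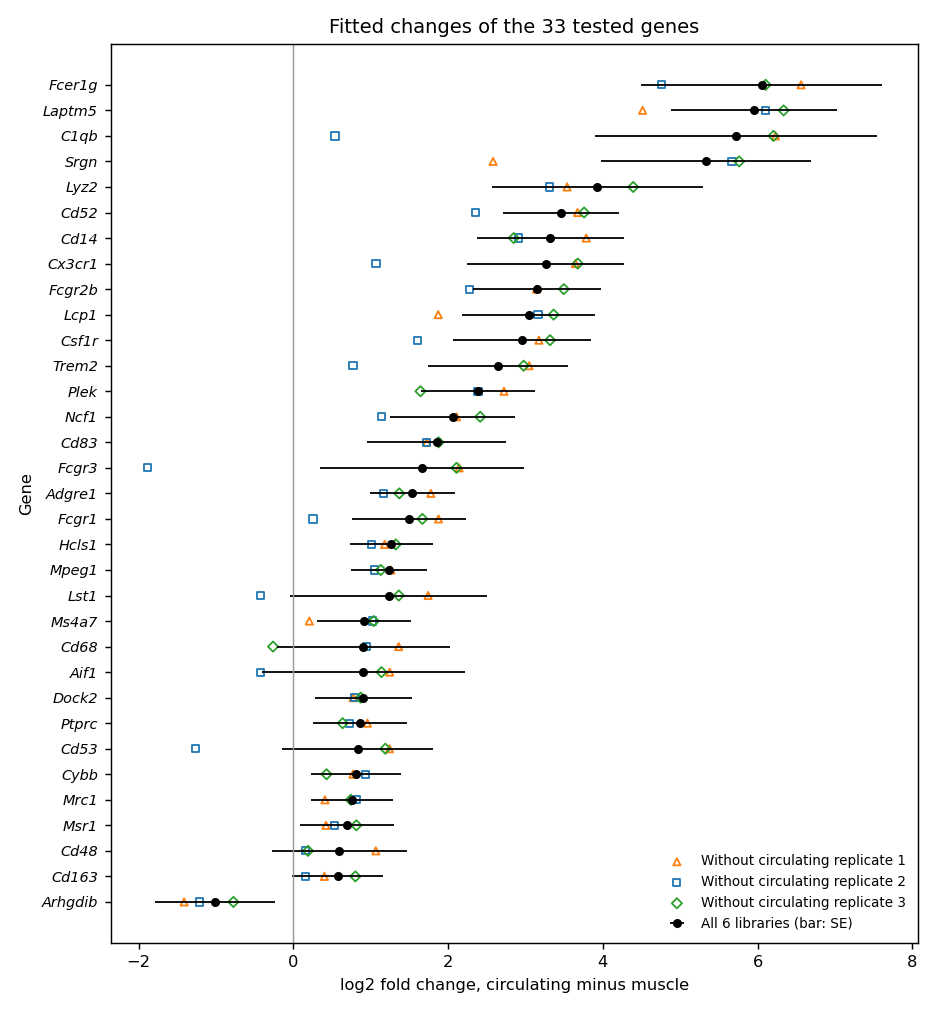
Fitted log2 fold change, circulating minus muscle, of the 33 tested genes with all 6 libraries (black, bar for 1 SE) and with each circulating library left out (open symbols). C1qb moves to 0.54 and Fcgr3 to -1.89 without circulating replicate 2, and Srgn to 2.58 without circulating replicate 1.

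A further 77 genes of macrophages and leukocytes were written down as a list apart from the 40, also with earlier results of these data known. Among 71 tested in edgeR, 0 were higher and 0 lower. With DESeq2, 5 were higher and 1 lower, where 1.34% of all its genes were higher and 7.08% lower. At an unadjusted p under 0.05, 19 were higher and 4 lower in edgeR, where 9.71% and 9.64% of all genes were. Of the 71, 55 had a positive log2 fold change, as had 54.5% of all genes, and the median was 0.62. Circulating replicates 1, 2 and 3 were above the highest muscle library in 33, 47 and 35 of the 77, where 36%, 35% and 34.1% of all genes tested were, so replicates 1 and 3 lay nearer to the share over all genes than replicate 2. Ctss, a cathepsin of antigen-presenting cells, had 78.8 CPM there, against 1.24 and 2.85 CPM in circulating replicates 1 and 3 and at most 0.965 CPM in muscle libraries. Ccl4, a chemokine of activated macrophages, had 72.5 CPM in circulating replicate 2 and at most 0.803 CPM in each of the other libraries. Fcgr4, Ccl3 and Il1b likewise were at least 4 times as high in circulating replicate 2 as in every other library, while Gpnmb and Alox5ap were so in circulating replicate 1.

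The 6 most abundant genes of that list were Axl, Cebpb, Csf1, Sirpa, Apoe and Gpnmb. Csf1, a ligand of Csf1r, had 77.6, 78.1 and 60.4 CPM in circulating replicates 1, 2 and 3, against 175, 116 and 161 CPM in muscle replicates 1, 2 and 3. In CPM Csf1 was lower in every circulating library, at a log2 fold change of -1.06 ± 0.41 (adjusted p = 0.216 in edgeR). Its receptor was higher in each. Over background the receptor was at 2.80, 8.95 and 1.43 times in circulating replicates 1, 2 and 3 and at 1.05, 1.48 and 0.769 times in muscle replicates 1, 2 and 3, so that the groups overlapped on that scale. Apoe, a lipid carrier, had 3.28, 107 and 5.71 CPM in circulating libraries and 62.0, 84.0 and 98.0 CPM in muscle libraries. Gpnmb, a glycoprotein of lysosome-rich cells, had 144, 16.1 and 29.6 CPM in circulating libraries and 11.5, 31.8 and 36.0 CPM in muscle libraries. Axl (340 to 571 and 287 to 475 CPM), Cebpb (259 to 387 and 307 to 458 CPM) and Sirpa (52.2 to 66.8 and 35 to 133 CPM) overlapped between circulating and muscle libraries, and all 6 are also known in cells other than leukocytes.

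Marker lists of other blood cells differed between the circulating libraries as well. Neutrophil markers summed to 159, 48.9 and 269 RPM in circulating replicates 1, 2 and 3, and to 12.2, 14.2 and 17.6 RPM in muscle replicates 1, 2 and 3. S100a9, which led in circulating replicate 1, had 69.8, 2.53 and 1.87 CPM in circulating libraries and 0.102 to 0.657 CPM in muscle libraries. S100a8, its partner in calprotectin, had 6.42, 4.39 and 61.4 CPM in circulating libraries and 0.355 to 7.38 CPM in muscle libraries. For S100a8, circulating replicates 1 and 2 lay within the muscle range. The pair thus peaked in different libraries. Dendritic cell and MHC class II genes summed to 275, 253 and 170 in circulating libraries and 76.4, 56.9 and 39.3 in muscle libraries. H2-Ab1, an MHC class II beta chain, was at 51.7, 33.7 and 26.7 CPM in circulating libraries, and 1.37 to 6.63 CPM in muscle libraries. H2-Aa, an MHC class II alpha chain and less even, was at 71.8, 5.59 and 10.4 CPM in circulating libraries, and 1.19 to 1.86 CPM in muscle libraries.

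Lymphocyte markers were sparse. T cell markers summed to 24.7 to 53.9 in circulating and 10.4 to 20.4 RPM in muscle libraries, B cell markers to 46.4 to 51.7 and 24.8 to 27.3, NK cell markers to 17.0 to 39.0 and 5.17 to 11.4, and mast cell and basophil markers to 18.4 to 46.0 and 7.92 to 9.56. In each of these 4 lists every circulating library was above every muscle library, as the sensory gene background also was. Of the leading NK cell markers, Prf1 had 1.02, 5.32 and 1.76 CPM in circulating replicates 1, 2 and 3 and 0.0978 to 0.239 CPM in muscle libraries. Its log2 fold change was 3.84 ± 0.80 (adjusted p = 0.101 in edgeR), and that of Klrk1 was 0.40 ± 0.49 (adjusted p = 0.651 in edgeR). Classical monocyte markers (261 to 481 and 196 to 398), resident macrophage markers (303 to 847 and 495 to 571), platelet markers (83.4 to 128 and 63.8 to 131) and red cell genes (318 to 552 and 114 to 476) overlapped between circulating and muscle libraries. The most abundant monocyte marker was Vcan (69.2 to 125 and 114 to 237 CPM), followed by Plac8. Plac8 had 149 CPM in circulating replicate 1 and at most 13.8 CPM in circulating replicates 2 and 3. In muscle libraries Plac8 was at 16.2 to 40.8 CPM. The most abundant resident macrophage marker was Gas6 (39.8 to 45.0 and 141 to 230 CPM), followed by Maf (34.3 to 74.2 and 56.1 to 80.2 CPM). Vcan, Gas6 and Maf were thus abundant in muscle libraries, and the sums of their lists do not report on monocytes or macrophages alone. Of the tested monocyte and macrophage markers, 6 of 8 and 7 of 10 had a positive log2 fold change (medians 0.83 and 0.99), where 54.5% of all genes did. In edgeR 0 passed the threshold. No gene of the lists in this paragraph was at 0 in all circulating libraries. The parts of the sensory gene background and of other blood cells in the differences of single members were not tested.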

How the data were processed

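The file deposited by the authors gives raw counts for 33276 gene symbols in 3 circulating and 3 muscle libraries. Reads were handled with featureCounts, STAR and Trim Galore on build GRCm39, per the submitters' processing notes; versions, options, annotation and strand setting were not given in the sources used here. Per the labels' protocols, library preparation used a TruePrep kit, in which a transposase cuts and tags DNA. Without a known strand setting, reads of a gene and of an antisense gene cannot be told apart; by the GENCODE M21 annotation of GRCm38, 15.1% of the exon bases of Csf1r, 14.5% of Cd52 and 11.1% of Ncf1 overlap a gene on the opposite strand.

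The members and the lists were chosen with earlier results of these data known. The genes named are the 40 members, 2 leading genes of marker lists, and genes set apart by 1 library. Of the further list, the most abundant 6 and those called with DESeq2 are named too. Smoc2 and the genes of the closing observations were named after their values were seen. Groups were compared with edgeR 4.0.16 (R 4.3.3), by its quasi-likelihood test with robust dispersions, TMM scaling and filterByExpr, on the whole table (20248 genes, common dispersion 0.381), with Benjamini-Hochberg adjustment over all genes and a threshold of 0.05. Each SE was taken from the coefficient and the square root of F. The steps were tested on simulated data. DESeq2 1.42.0 was an alternative. The same-numbered libraries were not treated as pairs, since no label ties them.

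The sensory gene background is the sum of reads of 381 vomeronasal, taste and trace amine receptor genes over their summed exon length, in RPM, reads per 1000000 counts other than 18S. Exon lengths came from GENCODE M21, matched by symbol for 91.5% of symbols and all 40 members, and may differ from those the authors counted over. Within groups the libraries differed far beyond sampling noise, with a chi-square per degree of freedom of 67.8 to 104.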

Additional observations from a re-analysis of the deposited data

How the results depend on the processing

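Over the alternatives tried, 6 fold changes of single members were of the other sign, 474 kept side and sign and 13 passed the threshold, 11 of them with DESeq2. Log2 fold changes ran from -1.27 to 1.75 for Cd53, -0.26 to 2.70 for Cd68, -1.89 to 2.93 for Fcgr3, -0.42 to 5.27 for Aif1 and -0.42 to 2.46 for Lst1 when each library was left out; the cause was not tested. The count of members higher in circulating libraries, 0 in edgeR with TMM, was 1 with library size alone, 1 with no filter and 11 with DESeq2, and 0 whichever library was left out, where 0 to 2 of all genes were higher; 0 members were lower under these settings. DESeq2 gave no adjusted p for 6 members, C1qb among them. Over all genes DESeq2 called 204 higher and 1078 lower and edgeR 1 and 21. Of the further list, DESeq2 called 5 higher and 1 lower. The median over the tested members ran from 1.01 to 1.88 with a library left out, over sets of 33 to 39 members. With all libraries, its distance to the median of all genes was 1.39 with TMM and 1.45 with scaling on abundant genes. The median itself was 2.25 with upper quartile scaling and 2.30 with abundant genes. Same-numbered libraries did not deviate together (r = 0.0095, 0.0553 and 0.0070 for numbers 1, 2 and 3); with the replicate block the median was 1.46, 0 members and 1 gene in all passed, and Fcgr3 turned to -0.11. Asking for 2 times the highest muscle library left 11 members in circulating replicate 1 and 7 in circulating replicate 3, and the level over background, chosen after seeing the data, as was TMMwsp scaling, gave 14 and 12. The summed level of circulating replicate 2 was 963 RPM of all counts and 708 RPM of the TMM-scaled size; those of muscle replicates 1, 2 and 3 were 72.8, 85.0 and 72.4, then 84.4, 75.7 and 82.9, and 81.4, 94.2 and 87.2 without the highest member. Circulating replicate 2 has the fewest counts, and members with fewer than about 10 reads in a library are known there only roughly.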

Other observations

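Some further genes, named after their values were seen and therefore given with no test, followed the C1q genes. P2ry12, a purinergic receptor known in microglia and platelets, had 22.1 CPM in circulating replicate 2, against 1.68 and 1.32 CPM in circulating replicates 1 and 3 and 0.203 to 1.08 CPM in muscle libraries. Siglech, a lectin of microglia and plasmacytoid dendritic cells, had 11.3 CPM in circulating replicate 2 and 0.733 to 2.70 CPM in the other 5 libraries. It was also part of the dendritic cell and MHC class II list above. Selplg, a selectin ligand of leukocytes, had 26.7 CPM in circulating replicate 2 and 1.87 to 5.48 CPM in the others. Gpr34 had 5.32 CPM in circulating replicate 2 and 0 to 0.659 CPM in the others. Other genes known in microglia did not follow. Tmem119 had 1.61, 6.92 and 3.95 CPM in circulating replicates 1, 2 and 3, against 44.9, 53.3 and 59.1 CPM in muscle replicates 1, 2 and 3. It was thus abundant in muscle libraries, and its level here does not report on microglia alone. Cst3 was at 571 to 767 CPM in circulating and 2214 to 2950 CPM in muscle libraries. Sall1, a transcription factor, had 2.34, 2.40 and 0.439 CPM in circulating libraries and 0.293 to 0.836 CPM in muscle libraries.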
